A study of Saccharomyces cerevisiae with 6 samples.

Results

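The genes described here are those of yeast meiosis and sporulation: the regulators of meiotic entry, the recombination and synapsis machinery, and the proteins that build the spore. Of 56 genes listed by name for these roles, 46 were in the tables of 5560 genes and were followed in cultures of BY4741 with and without UPF3. BY4741 is a common laboratory yeast; it is haploid, with mating type a. The other 10 (HOP1, MEK1, SPO13, MER1, SPO74, SPO77, MND1, SAE3, LDS2 and CDA2) were not analysed here. Both groups were BY4741, 3 cultures as wild type and 3 carrying a knockout of UPF3, and the design text describes each trio as biological triplicates. RNA was labelled with 4-thiouracil (4TU), a uracil analogue that is read as a T-to-C change after alkylation, and was sampled over a chase. Each culture gave 7 libraries, 1 unlabelled (DMSO) and 6 labelled. Whether the 3 deletion cultures came from 1 clone, and the medium, were not stated in the labels.

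Meiosis and sporulation normally take place in starved diploid a/alpha cells, where the transcription factor Ime1 starts a cascade that the kinase Ime2 and then the transcription factor Ndt80 carry forward. In growing cells most of these genes are held off by Ume6 and its partner histone deacetylase, and in haploids entry is blocked further because the a1-alpha2 repressor is absent. Upf3, with Upf1 and Upf2, carries out nonsense-mediated decay, which degrades messages whose translation ends early, including messages with upstream reading frames, retained introns or long 3′ ends.

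Libraries held 11045419 to 23761767 reads, and the 46 genes took 0.0216 to 0.0295% of the labelled reads in the wild-type libraries and 0.0508 to 0.0848% in the deletion libraries. UPF3 itself stood at 24.1, 27.5 and 30.7 normalised CPM (reads scaled to a common library size) in wild type and at 4.32, 5.40 and 6.18 in the deletion cultures (log2 change -2.37, adjusted p = 0.00297 by edgeR). The a-cell pheromone gene MFA1 had 1570, 1150 and 1060 CPM in wild type and 708, 400 and 473 in the deletion, and the a-cell receptor gene STE2 had 333 to 657 over all cultures. Of the alpha-cell markers STE3 was the one measured, with 7.87 to 11.7 CPM in wild type and 16.1 to 27.4 in the deletion (adjusted p = 0.115 by edgeR; called higher with the replicate number as a block), and its part in the results below was not tested. Replicate 1 of each genotype stood apart: across genes its log2 normalised CPM correlated at 0.951 with wild-type replicates 2 and 3, and at 0.889 and 0.911 in the deletion, against 0.999 and 0.992 between replicates 2 and 3. In the tables all 7 library identifiers of wild type 1 recur in deletion 3, and those of deletion 1 in deletion 2, although the counts under them differ.

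In wild type the genes had few reads. Their median was 6.75 CPM per kilobase of counting window against 75.2 over all genes, 46 of 46 lay below the median gene, and 38 lay in the lowest 10% by this measure. The lowest was SPS2, a spore wall gene, at 0.148 CPM per kilobase, with 0, 0.0860 and 0.144 CPM in the 3 wild-type cultures. The highest was MUM2, a subunit of the RNA methyltransferase complex of meiosis, at 63.1 CPM per kilobase. In such bulk RNA, a few cells with much of a message and many cells with little of it cannot be told apart.

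Without UPF3, many of these genes had more reads and none passed the test in the other direction. In reads summed over the 6 labelled libraries per culture, 15 of the 46 genes rose and 0 fell by edgeR (adjusted p under 0.05), which is 32.6% against 5.76% of the 5555 genes tested (5.58% higher and 0.18% lower). An unadjusted p under 0.05 was found for 28 of the 46 and for 843 of all genes. The median log2 change was 1.04 for the 46 genes and -0.01 over all genes tested, and 44 of the 46 had a positive change against 48.9% of all genes. For 29 of the 46 (63.0%) every deletion culture was above every wild-type culture, against 15.6% of all genes; the reverse held for 0 of the 46 and 7.22% of all genes. DESeq2 called 21 genes higher and 0 lower, among them the same 15, with a background of 10.2% (8.8% higher and 1.35% lower).

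Same-numbered cultures of the 2 genotypes deviated together, and with the replicate number as a block 31 of the 46 genes (67.4%) rose, the 15 included, against 27.5% of the 5556 genes then tested (20% higher and 7.52% lower). Genes with few reads rose more often than others. Without the block, among the 555 genes in the lowest 10% by mean reads, 17.1% rose and the median change was 0.51. Of the 34 meiotic genes there 8 (23.5%) rose with a median of 0.96. Among the 5000 genes above that 10%, also without the block, 4.3% rose. Of the 12 meiotic genes there 7 (58.3%) rose with a median of 1.95. The mean took in both genotypes, so a gene could lie above the 10% through its reads in the deletion. Of those 7, IME2, RED1 and HFM1 had wild-type means of 4.09, 6.12 and 6.85 CPM. The split is therefore not independent of the change. With the block 44% of the 555 genes rose, with a median of 0.46, and 22 of the 34 meiotic genes (64.7%), with a median of 0.92. The part of read depth in the differences was not tested.

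**Figure D1:**
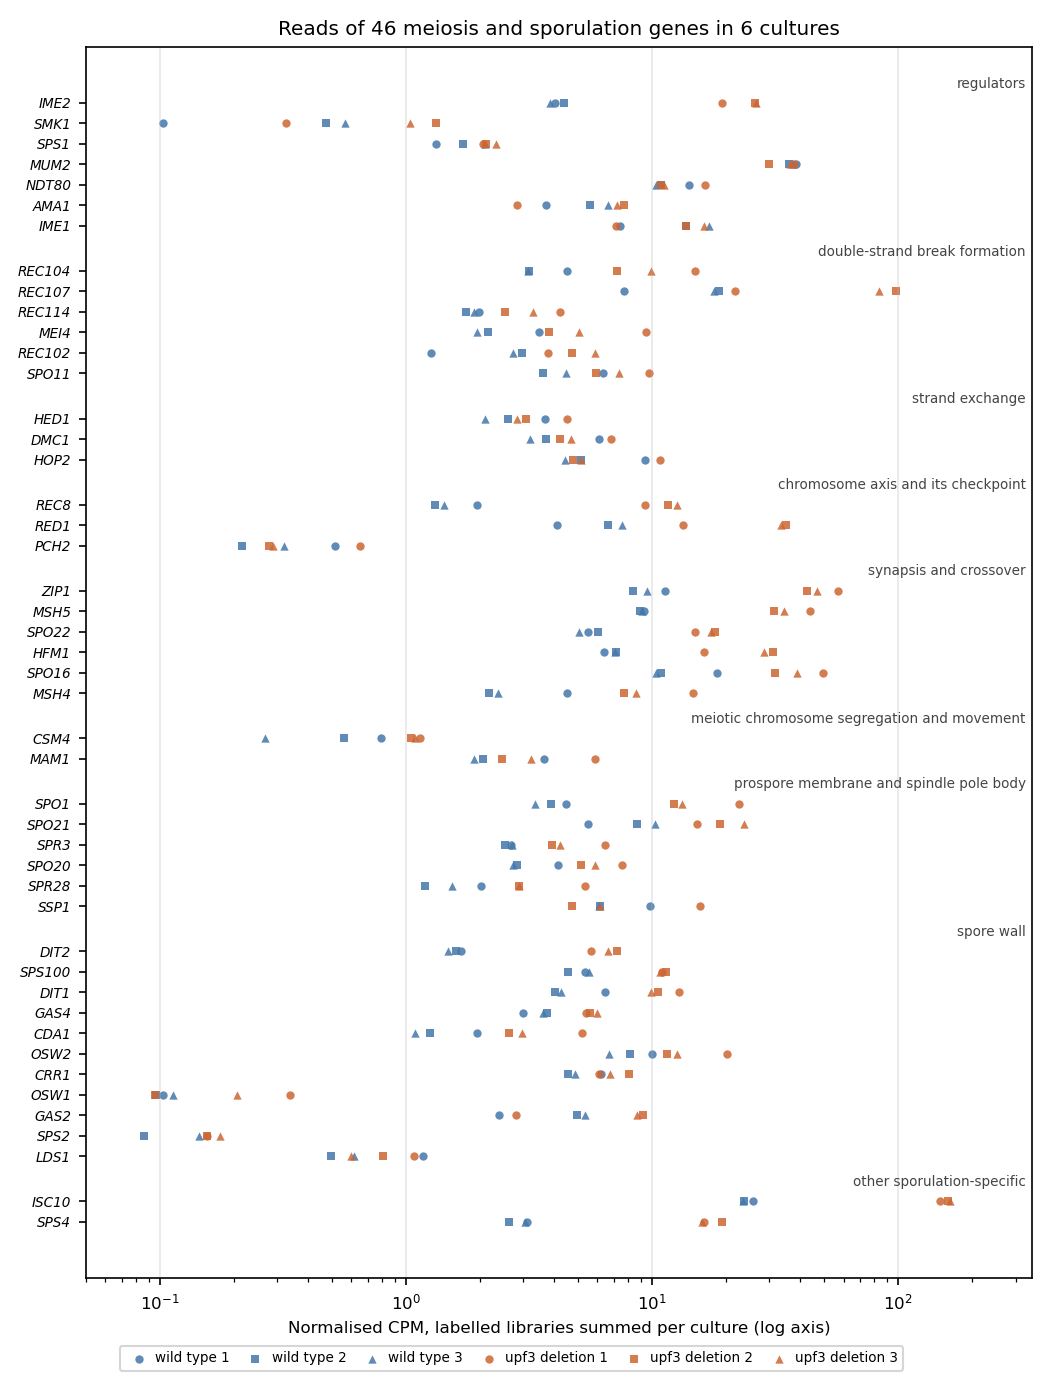
Normalised CPM of the 46 genes, grouped by role, in each of the 6 cultures, on a log axis; blue marks are wild type, orange marks the UPF3 deletion, and the shape gives the replicate number. The 15 called genes have all orange marks to the right of all blue marks, while MUM2, NDT80 and IME1 have them mixed; SPS2 had 0 reads in wild type 1 and that mark is not drawn.

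**Figure D2:**
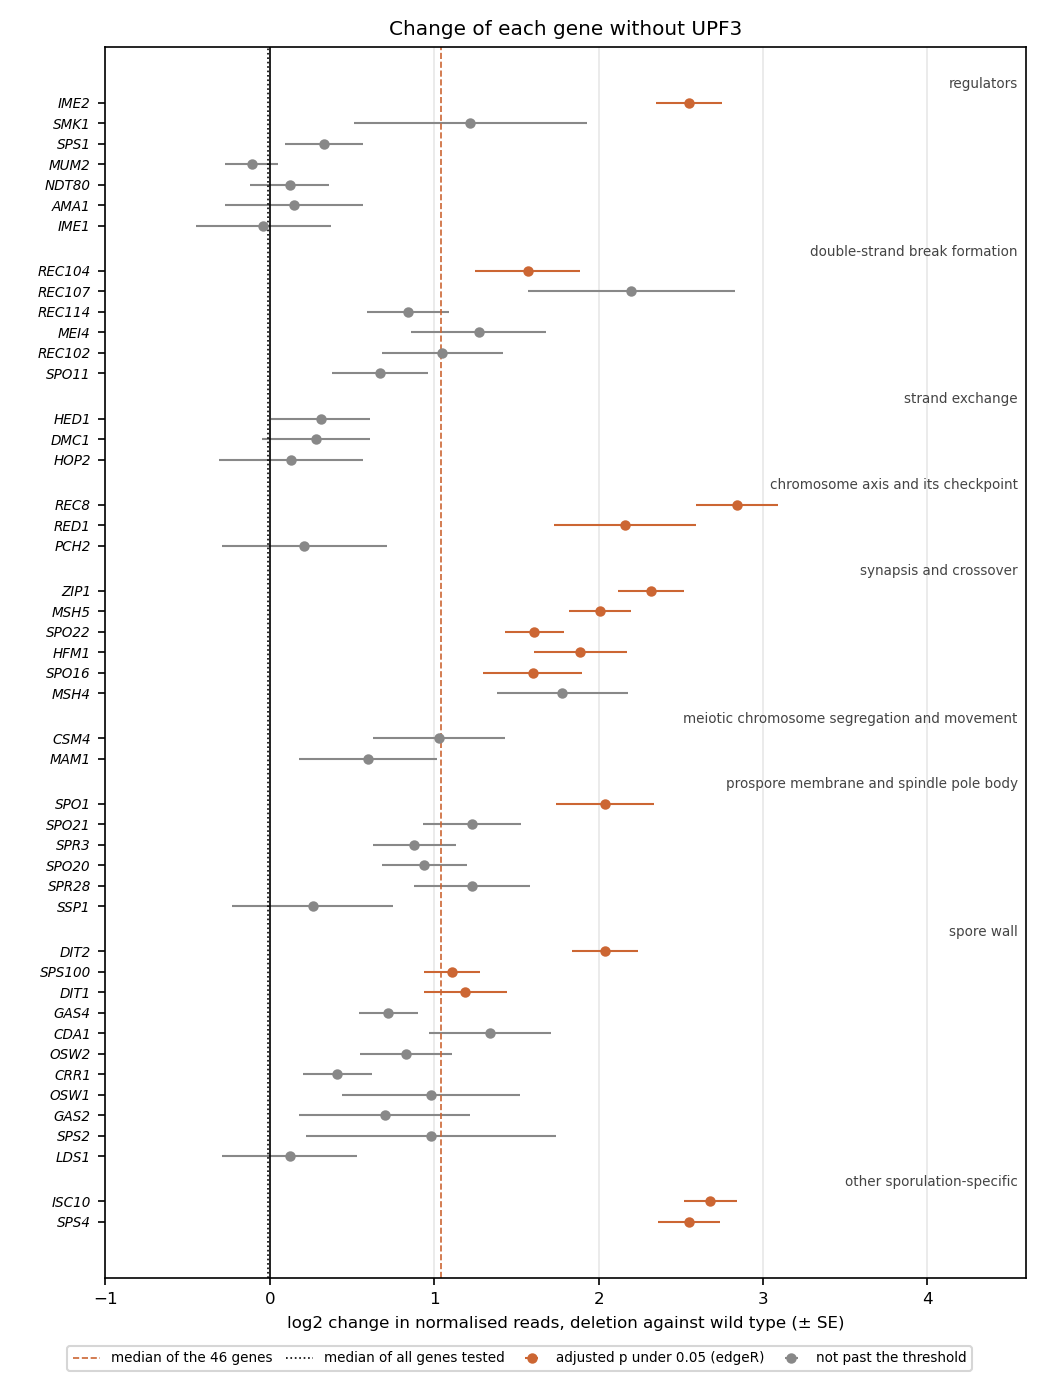
log2 change in normalised reads of each gene, deletion against wild type, with its standard error, 3 cultures against 3; orange marks passed an adjusted p of 0.05 by edgeR. The dashed line is the median of the 46 genes, at 1.04, and the dotted line that of all genes tested, at -0.01.

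At the head of the cascade the regulators parted. IME2 (YJL106W, chrX:221390-223327 in build R64), the kinase that drives entry into meiotic S phase, had 4.02, 4.40 and 3.85 CPM in wild type and 19.2, 26.1 and 26.5 in the deletion. The deletion cultures were all above the wild-type cultures, and the rise was 5.85-fold (log2 2.55, SE 0.20, adjusted p = 0.00230 by edgeR). IME1, the transcription factor that induces IME2 in starved diploids, had 7.39, 13.8 and 17.0 CPM in wild type and 7.12, 13.8 and 16.2 in the deletion. The ranges overlapped almost wholly, replicate 1 was the lowest in both genotypes, and the log2 change was -0.04 (SE 0.41, adjusted p = 1.00 by edgeR). NDT80, the transcription factor of the middle sporulation genes, had 14.1, 10.9 and 10.4 CPM against 16.4, 10.9 and 11.2, also overlapping (log2 0.12, SE 0.24). The RNA methylation gene MUM2 had 38.5, 36.1 and 37.3 CPM against 37.6, 29.8 and 36.5. AMA1, a meiotic activator of the anaphase-promoting complex, had a log2 change of 0.15, and the sporulation kinase gene SPS1 one of 0.33; both overlapped between genotypes. SMK1, the mitogen-activated protein kinase gene of spore wall assembly, rested on 0.103, 0.473 and 0.564 CPM against 0.324, 1.33 and 1.04. SMK1 passed only with the block (adjusted p = 0.0194 by edgeR). In all, 1 of 7 regulators rose, with a median of 0.15, against 5.58% of all genes. With the block 2 of 7 did, against 20% of all genes and 44% of those in the lowest 10% by mean reads.

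Of the 6 genes for making meiotic double-strand breaks, 1 rose, against 5.58% of all genes. With the replicate block 6 did, against 20% of all genes and 44% of those in the lowest 10% by mean reads. The median log2 change of the 6 was 1.16 and all 6 were positive. REC104, which encodes a partner of the break-making enzyme Spo11, had 4.50, 3.17 and 3.14 CPM in wild type and 14.9, 7.21 and 9.92 in the deletion (2.96-fold, adjusted p = 0.0451 by edgeR). REC107, also called MER2, encodes a protein that ties the break machinery to the chromosome axis. It had 7.68, 18.7 and 17.9 CPM in wild type and 21.7, 98.4 and 83.8 in the deletion. Every deletion culture was above every wild-type culture, yet replicate 1 was low in both genotypes, and the change of 2.20 (SE 0.63) had an adjusted p of 0.126 by edgeR and of 0.000144 with the block. MEI4, REC102, REC114 and SPO11 had changes of 1.27, 1.05, 0.84 and 0.67, none past the threshold without the block.

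None of the 3 strand-exchange genes passed the test. DMC1, the meiosis-specific recombinase gene, had 6.10, 3.71 and 3.19 CPM in wild type and 6.81, 4.24 and 4.68 in the deletion (log2 0.28, SE 0.33, adjusted p = 0.920 by edgeR). HED1 had a log2 change of 0.31, and HOP2, whose product helps Dmc1 pair homologous chromosomes, one of 0.13. The cultures of the genotypes overlapped for all 3, and 0 of 3 passed with the block, against 27.5% of all genes.

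The genes of the chromosome axis and of synapsis and crossing over held many of the calls. REC8 (YPR007C, chrXVI:569336-571378), the meiotic cohesin subunit gene, had 1.95, 1.31 and 1.43 CPM in wild type and 9.37, 11.6 and 12.6 in the deletion. No culture overlapped, and the fold of 7.17 (log2 2.84, SE 0.25, adjusted p = 0.00275 by edgeR) was the highest of the 46. RED1, a core axis protein gene, rose 4.46-fold, from 4.12, 6.64 and 7.58 CPM to 13.4, 35.1 and 33.4 (adjusted p = 0.0417 by edgeR). The third axis gene measured, PCH2, which encodes the ATPase that removes Hop1 from the axis, lay at 0.215 to 0.513 CPM in wild type and 0.277 to 0.648 in the deletion and overlapped.

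All 6 genes for synapsis and crossover had their deletion cultures above their wild-type cultures, and 5 rose, with a median log2 change of 1.83. Over all genes 15.6% had the cultures apart in this direction and 5.58% rose. ZIP1 (YDR285W, chrIV:1032436-1035063), the central element of the synaptonemal complex, had 11.3, 8.36 and 9.55 CPM in wild type and 56.8, 42.5 and 46.8 in the deletion (5.01-fold, log2 2.32, SE 0.20, adjusted p = 0.00285 by edgeR). MSH5 (YDL154W, chrIV:178334-181039), which with MSH4 encodes a pair that stabilises crossover intermediates, had 9.27, 8.94 and 9.06 CPM against 44, 31.4 and 34.4 (4.03-fold, SE 0.19 on the log2 scale, adjusted p = 0.00331 by edgeR). Its partner MSH4 had 4.50, 2.18 and 2.37 CPM against 14.7, 7.70 and 8.61, 3.43-fold, just outside the threshold (adjusted p = 0.0577 by edgeR). The helicase gene HFM1 (also MER3) rose 3.70-fold, the scaffold gene SPO22 (also ZIP4) 3.05-fold and SPO16, which encodes a partner of Zip2, 3.03-fold, with adjusted p values of 0.0145, 0.00538 and 0.0331 by edgeR. With the block all 6 rose, against 20% of all genes.

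Genes of later stages followed. MAM1, the monopolin gene that makes sister chromatids segregate together, and CSM4, which acts in chromosome movement led by telomeres, had log2 changes of 0.60 and 1.03 and 0 of the 2 passed, while CSM4 did with the block (adjusted p = 0.0451 by edgeR). Among 6 genes of the prospore membrane and the spindle pole body, SPO1, a phospholipase-like gene, rose from 4.49, 3.88 and 3.34 CPM to 22.5, 12.3 and 13.2 (4.10-fold, adjusted p = 0.0143 by edgeR). SPO21, part of the meiotic outer plaque of the spindle pole body, came next with 5.50, 8.71 and 10.3 CPM against 15.2, 18.9 and 23.7, groups apart and an adjusted p of 0.0745 by edgeR (0.000351 with the block). The septin genes SPR3 and SPR28 and the membrane-fusion gene SPO20 had 0.88, 1.23 and 0.94, and SSP1, of the leading edge of the prospore membrane, 0.26. The list median was 1.08, and 5 of 6 rose with the block, against 20% of all genes.

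Of 11 spore wall genes 3 rose, against 5.58% of all genes, and the median log2 change of the 11 was 0.98. DIT1 and DIT2, a divergent gene pair whose products make the dityrosine of the outer spore wall, both rose. DIT2 had 1.67, 1.60 and 1.48 CPM in wild type and 5.65, 7.19 and 6.63 in the deletion (4.10-fold, adjusted p = 0.00346 by edgeR), and DIT1 4.90 ± 1.32 against 11.1 ± 1.57 (SD, n = 3; 2.28-fold, adjusted p = 0.0478 by edgeR). SPS100, a spore wall protein gene, had 5.34, 4.56 and 5.55 CPM against 11, 11.4 and 10.8 (2.15-fold, adjusted p = 0.0169 by edgeR). The other 8 had changes from 0.12 in LDS1 to 1.34 in CDA1, a chitin deacetylase gene. With the block 7 of the 11 rose, against 20% of all genes.

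SPS4 (YOR313C, chrXV:901858-902874), a sporulation gene of unknown molecular role, had 3.09, 2.61 and 3.05 CPM in wild type and 16.3, 19.3 and 15.9 in the deletion (5.88-fold, log2 2.55, SE 0.19, adjusted p = 0.00204 by edgeR). ISC10 (YER180C, chrV:549724-550527), which is needed for spore formation, had 25.8, 23.7 and 23.5 CPM in wild type and 148, 159 and 163 in the deletion. Its groups lay far apart, at 6.42-fold (log2 2.68, SE 0.16), with the lowest adjusted p of the 46, 0.00134 by edgeR. These reads cannot be given to ISC10 alone. SLO1, which encodes an interactor of the Arl3 GTPase and lies 337 bases away on the 5′ side of ISC10 on the same strand, had 63950 reads against 60936 over all libraries, at least as many in 42 of 42. SLO1 had a counting window of 1480 bases against 518 for ISC10, and its log2 change was 2.59. Across the 42 libraries the log reads of both correlated at 0.999, and the next highest value for any of the 46 genes and a gene within 2000 bases was 0.899, for REC104 and LIN1 (log2 change of LIN1 1.32). Without ISC10, 14 of the other 45 genes rose.

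Genes with and without an intron had close medians. Of the 46, 11 are genes known to be spliced. Their median log2 change was 1.05 with 3 calls, against 1.03 with 12 calls in the 35 without, and 5.58% of all genes rose. The 4 whose splicing depends on the meiotic factor Mer1 ranged from 0.15 in AMA1 to 2.20 in REC107, with calls for SPO22 and HFM1. Facing genes that end within 500 bases of a member were found for 18 members. Of these neighbours 2 were called, ISC10 beside DMC1 and YNL011C beside SPO1 (log2 0.82, adjusted p = 0.0429 by edgeR), against 5.76% of all genes. Other genes within 2000 bases were called too, among them LIN1 beside REC104, PEX9 beside SPO20 and ZIP2 beside HFM1. These had log2 changes of 1.32, 2.61 and 2.27 (adjusted p = 0.0369, 0.00204 and 0.0063 by edgeR). Reads of facing genes could not be told apart if counting ignored strand, on which the labels and headers are silent.

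The unlabelled libraries, which did not enter the sums above but came from the same cultures, gave positive changes for most of the genes as well. Of 41 genes with enough reads, 11 rose and 0 fell by edgeR (26.8%, against 3.3% of the 5509 genes tested, 3.23% higher and 0.0726% lower), and all 11 were among the 15. The median log2 change was 0.91 against -0.04 over all genes tested, and 21 of the 41 had deletion cultures above all wild-type cultures against 13.4% of all genes, and 0 had them below against 5.19%. REC8 had 1.61, 2.05 and 0.902 CPM in unlabelled wild type and 13.6, 15 and 11.9 in the unlabelled deletion (log2 3.16, adjusted p = 0.00941 by edgeR). IME2 had 5.31, 3.59 and 2.58 against 17.3, 26.8 and 21.4. The 4 genes called in the labelled sums and not here, DIT1, DIT2, RED1 and SPS100, had positive changes of 1.15, 2.10, 2.06 and 0.63. With the block 18 of 42 rose and 0 fell (15.4% of all genes, 13.2% higher and 2.17% lower).

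In summed reads at about 8 minutes of chase, the 46 genes kept less label than all genes together in wild type. In the deletion they kept more than in wild type, though still less than all genes together. Summed over the 46 genes, the share of T bases converted at the first chase point was 2.95, 2.44 and 2.71% in wild type and 2.57, 2.23 and 2.53% in the deletion. At about 8 minutes of chase (times carry no unit in the files and are read as minutes) it was 1.24, 1.23 and 1.32% in wild type and 1.92, 1.77 and 1.86% in the deletion, with no overlap. Over all genes the same point gave 2.13, 1.85 and 2.03% and 2.10, 1.93 and 2.01%, so over all genes the genotypes overlapped. ISC10 gave 9.62 to 11% of the reads of the 46 genes at this point in wild type and 23.4 to 25% in the deletion, and without it the shares were 1.29, 1.26 and 1.36% against 1.88, 1.70 and 1.81%. At about 18 minutes they were 0.673, 0.625 and 0.748% in wild type and 1.2, 1.04 and 1.17% in the deletion with all 46 genes. In these sums genes with more reads weigh more, and no test was made of them.

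Half-lives per gene depended on how the decay was fitted. From a straight line through the log2 conversion rates, 32 genes had a half-life in all 6 cultures and 0 of them changed by limma, as did 0% of the 5329 genes tested. At an unadjusted p under 0.05 there were 3 of the 32 and 302 of all genes. The median log2 change was 0.43 against 0.03 for all genes. The median half-life of the 32 was 12.1, 12.7 and 12.7 minutes in the wild-type cultures, against 11.2, 11.4 and 11.5 over all genes. In the deletion cultures it was 14.9, 15.6 and 14.5 minutes, against 12.1, 11.5 and 11.4. By the line, every deletion culture was above every wild-type culture for 5 of the 32 (15.6%, against 7.52% of all genes) and below for 1 (3.12%, against 4.5%). The lowest p belonged to SPO20, which encodes a SNARE of prospore membrane fusion, with 10.1, 9.81 and 10.1 minutes in wild type and 21.8, 30.7 and 15.6 in the deletion (unadjusted p = 0.00467, adjusted p = 0.858 by limma). ZIP1 had 15.2, 12.4 and 11.9 minutes against 18.3, 22.5 and 19.9, and MAM1 3.17, 2.73 and 4.46 against 57.8, 19.8 and 5.29. SPO1 had 6.8, 12.1 and 11.1 against 13.2, 16.7 and 13.6. HFM1 lay the other way by the line, with 39.9, 26.2 and 21.9 minutes against 20, 15.5 and 13.4, and by the exponential its log2 change was 0.68.

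A single exponential fitted to the rates themselves, which weights the last chase point less, left 36 genes. Their median half-life was 7.20, 8.42 and 8.87 minutes in the wild-type cultures and 15.6, 16.3 and 15.2 in the deletion cultures, against 9.06, 8.08 and 8.43 and 11.2, 9.85 and 9.78 over all genes. The median log2 change was 0.77 against 0.16 for all genes. Of the 36, 31 had a positive change (76.1% of all genes did), and for 14 (38.9%) every deletion culture was above every wild-type culture, against 21.5% of all genes. The reverse held for 0 of the 36 and 1.11% of all genes. By limma 1 of the 36 lengthened, ISC10, against 0.37% of the 5408 genes tested, and 17 of the 36 and 827 of all genes had an unadjusted p under 0.05. Split at the lowest 10% by mean reads, the median change was 0.77 for 24 meiotic genes in it against 0.48 for all 414 genes there, and 0.82 for the 12 above it against 0.15 for all 4994. As this mean took in both genotypes, the split does not sort genes by their depth in wild type.

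ISC10, with the limit on its reads given above, had 4.89, 6.02 and 5.68 minutes in wild type and 16.7, 17.6 and 17.9 in the deletion by the exponential (log2 1.66, SE 0.14, adjusted p = 0.0211 by limma). SLO1 had 5.19, 5.68 and 5.6 minutes against 16.9, 17.9 and 17.8. The rates behind these values were close within each genotype: at about 8 minutes 0.8, 1.05 and 1.03% of T bases were converted in wild type and 2.04, 2 and 2.02% in the deletion, from starting values of 2.63, 2.39 and 3.09% and 2.5, 2.28 and 2.68%. By the line the change of ISC10 was -0.02 (SE 0.21), and by the exponential the call was lost in 5 of the 6 fits that left out 1 culture (adjusted p up to 0.181 by limma). Without ISC10, 0 of the other 35 genes passed.

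Behind ISC10 came several of the 15 genes that had more reads in the deletion, none past the threshold. SPS4 had 5.96, 4.18 and 3.22 minutes against 24, 13.2 and 17.8 (log2 2.05, adjusted p = 0.0625 by limma). MSH5 had 5.70, 6.41 and 6.43 against 14.2, 11 and 16.9 (1.16, adjusted p = 0.0686 by limma), and IME2 9.16, 5.41 and 8.51 against 19.4, 18.8 and 16.2 (1.27, adjusted p = 0.0735 by limma). In all of these the genotypes were apart. SPO16 had 12.2, 11.3 and 10.5 minutes against 20, 16.6 and 16.9 (0.65, adjusted p = 0.0765 by limma), also apart. IME1, whose read level did not pass the test, had 3.26, 7.24 and 7.89 minutes against 15.3, 11.4 and 11, apart as well (1.12, adjusted p = 0.238 by limma). NDT80 had 9, 12 and 16.3 against 16.5, 20.2 and 14.7, which overlapped, as did MUM2 with 5.12, 5.43 and 5.06 against 6.41, 5.08 and 9.95. The values of SPS4 rest on 11 to 62 reads per labelled library in wild type, against 107 to 454 in the deletion. By the line the log2 changes of SPS4, MSH5, SPO16 and IME2 were -0.29, -0.03, -0.44 and 0.66, none past the threshold. Of the 15 genes with more reads, 13 had a half-life by the exponential. In the deletion 13 of these had a longer one, as did 76.1% of all genes. The genotypes were apart for 9, against 21.5% of all genes. By the line 7 of 13 were longer, against 54.6% of all genes.

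**Figure D3:**
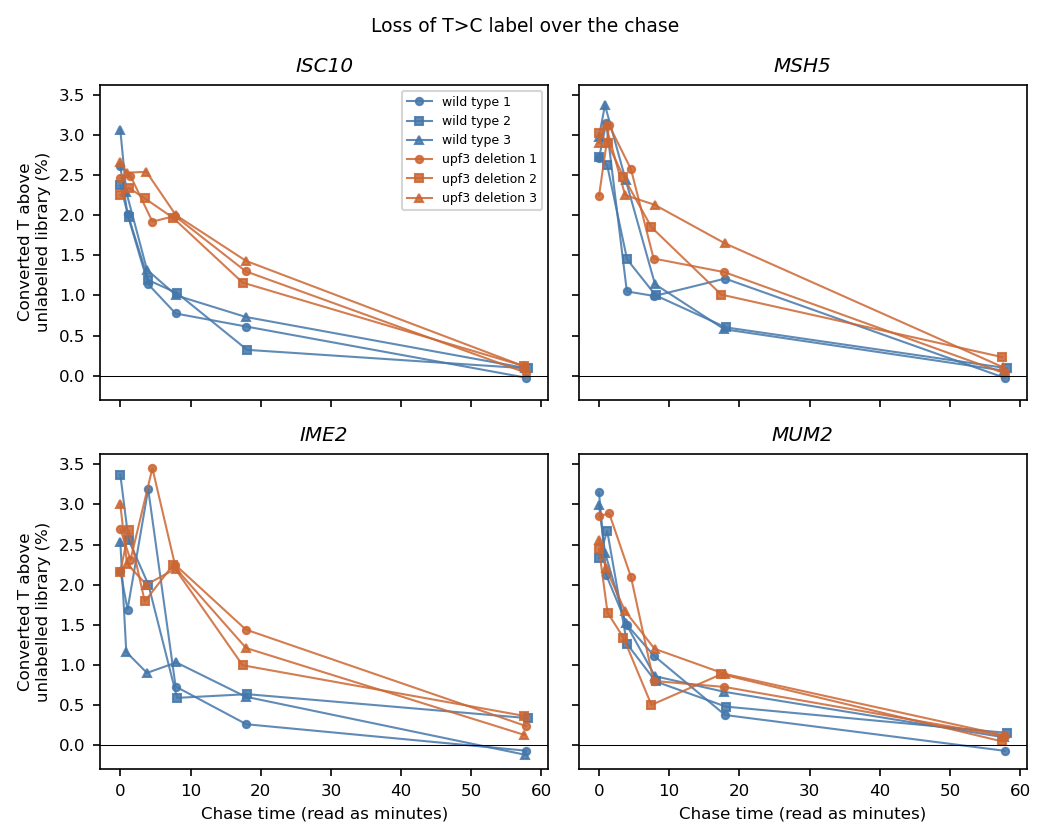
Share of T bases converted, after subtraction of the unlabelled library, against chase time (read as minutes) for ISC10, MSH5, IME2 and MUM2 in the 6 cultures. At about 8 minutes the 3 deletion cultures lie above the 3 wild-type cultures for ISC10, MSH5 and IME2, while for MUM2 they are mixed.

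**Figure D4:**
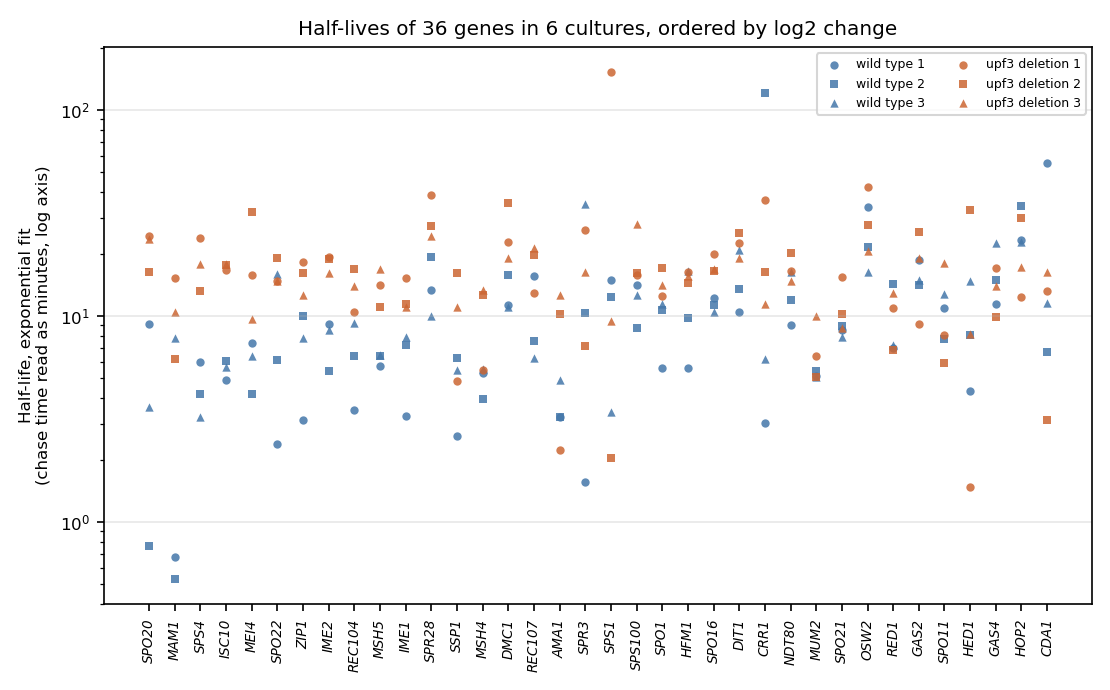
Half-lives by the exponential fit (log axis, chase time read as minutes) of the 36 genes with a value in all 6 cultures, ordered by the log2 change from the highest at the left. Of these, 14 genes have all 3 orange marks (deletion) above all 3 blue marks (wild type), and ISC10 alone passed the test.

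The labelling itself and the chase moved these genes no more often than all genes, by the share of calls. Between the unlabelled and the first labelled library of the same culture, 0 of 43 genes rose and 2 fell by edgeR (4.65%), against 5.94% of the 5540 genes tested (3.99% higher and 1.95% lower), and the median change was -0.03 against -0.01. An unadjusted p under 0.05 by edgeR was found for 4 of the 43 and for 1306 of all genes. SPS4 was lower with label in 6 of 6 cultures, from 5.93, 6.55 and 7.36 CPM to 2.53, 2.52 and 3.25 in wild type and from 26.6, 43.1 and 28 to 16, 23 and 18.3 in the deletion (log2 -0.98, adjusted p = 0.0112 by edgeR). SPS100 was lower in 6 of 6 as well, from 12.6, 7.72 and 9.51 CPM to 4.44, 6.43 and 5.24 in wild type and from 17.2, 15.1 and 12.3 to 7.46, 9.68 and 8.64 in the deletion (log2 -0.82, adjusted p = 0.0462 by edgeR). The change on labelling differed between genotypes for 0 of the 43 genes and 0% of all genes by edgeR, with 0 of the 43 and 65 of all genes at an unadjusted p under 0.05.

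Between the first and the last chase library, 1 of 43 genes was higher at the last by edgeR and 3 were lower, against 6.14 and 6.55% of the 5538 genes tested, a share of 9.30% against 12.7% in either direction. An unadjusted p under 0.05 by edgeR was found for 10 of the 43 and for 1606 of all genes. SPO16 went from 28.8, 14.3 and 15.4 CPM to 40.9, 19.1 and 17.8 in wild type and from 67.1, 30.5 and 42.5 to 89.5, 60.2 and 63.6 in the deletion (log2 0.52, adjusted p = 0.024 by edgeR). This was no steady rise: at about 18 minutes SPO16 stood at 8.83, 6.01 and 7.38 CPM in wild type and at 25.6, 14.1 and 17.1 in the deletion, below both the first and the last point in 6 of 6 cultures. HOP2, SPO20 and the break-formation gene REC114 fell by 0.88, 0.86 and 1.11 on the log2 scale (adjusted p = 0.0217, 0.039 and 0.0418 by edgeR), each in 6 of 6 cultures. A half-life taken from the share of converted bases presumes a steady level, which these 4 genes did not have. A missed threshold does not show a steady level for the others. ISC10 rose in 6 of 6 cultures (log2 0.35, adjusted p = 0.0635 by edgeR), by a mean log2 of 0.47 in wild type and 0.23 in the deletion. RED1, HFM1 and MUM2 rose and OSW2 fell in 6 of 6 as well, short of the threshold. The share of all genes that moved one way in 6 of 6 cultures was not counted. The change over the chase differed between genotypes for 0 of the 43 genes by edgeR, and for 0% of all genes, with 3 of the 43 and 261 of all genes at an unadjusted p under 0.05.

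**Figure D5:**
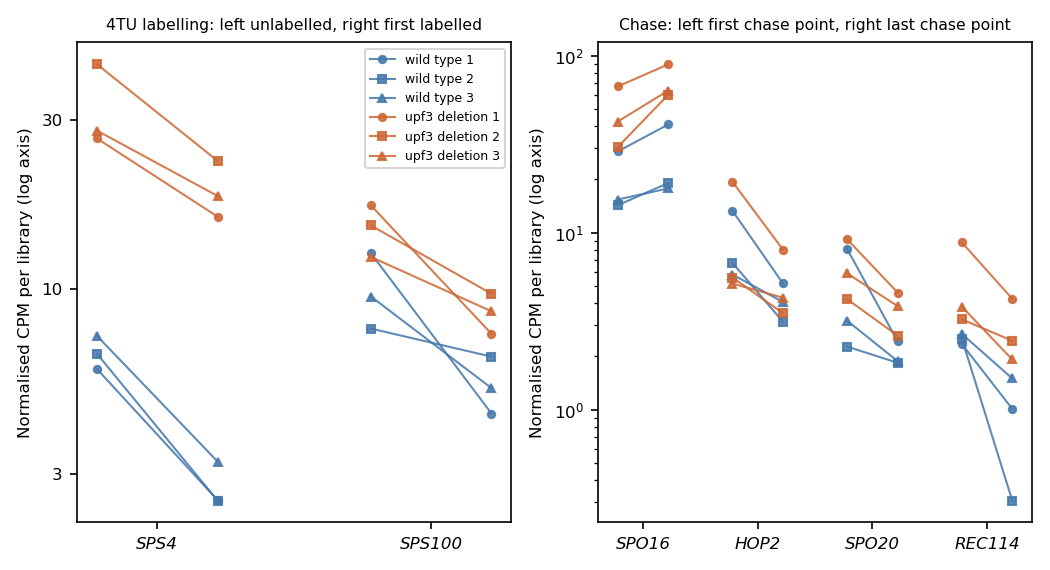
Normalised CPM (log axes) of the genes whose level moved with labelling (left panel: unlabelled, then first labelled library) or over the chase (right panel: first, then last chase library), 1 line per culture. All 6 lines fall for SPS4, SPS100, HOP2, SPO20 and REC114, and all 6 rise for SPO16.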

How the data were processed

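Per the labels' protocols, alkylated total RNA was made into 3′-end libraries (QuantSeq FWD). Per the file headers, the deposited tables are SlamDunk output collapsed per gene; build R64 is named in the submitters' processing notes, and the labels and headers name no version, setting or use of strand. Deposited counts, per the file headers, cover reads, T>C reads, T bases and converted T bases. The conversion rate was deposited as a fraction. Also used as deposited were chase time (no unit, read as minutes) and window length. Of 5560 identifiers, 5558 matched the reference table of build R64.

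Each culture's 6 labelled libraries were added up, and genes were compared by the quasi-likelihood test of edgeR 4.0.16 after filterByExpr and TMM scaling; unlabelled libraries were treated likewise. Labelling and chase were tested with culture as a block. CPM were normalised by TMM-scaled library sizes, and standard errors are those implied by the test. For half-lives the unlabelled rate was subtracted and a line of log2 rate on time, weighted by reads, or a single exponential (half-lives of 0.5 to 500 searched) was fitted. Genes needed a mean of 20 reads per labelled library and signal at 3 chase points in all cultures. The log2 half-lives went into limma 3.58.1 (trend, robust). All p values are two-sided, adjusted by Benjamini-Hochberg over all genes tested, with a threshold of 0.05. DESeq2 1.42.0, relative log expression scaling, no count filter, the replicate block and leaving out cultures were alternatives. R 4.3.3, Python 3.11.15 and matplotlib 3.10.9 were used.

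Labelled reads per culture were 74150749 to 105757140. The labels' replicate numbers give no stated batch. For reads, deviations from the group means correlated between same-numbered cultures (0.937, 0.906 and 0.862; unlabelled 0.790, 0.791 and 0.569), so the numbers were taken as pairs; as replicate 1 stands apart in both genotypes, these are not independent. Members and lists were chosen with earlier results of these data known. Named genes were IME1, IME2 and NDT80, every called member, per role list the 2 lowest p values, the 5 lowest half-life p values, the lowest and highest wild-type level, and called genes of other lists; further members complete each role, and neighbouring genes were named after their values were seen.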

Additional observations from a re-analysis of the deposited data

Results flagged for a closer look

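In 2 spore wall genes and 1 axis gene every wild-type culture moved one way and every deletion culture the other. The share of all genes with this pattern was not counted, so it cannot be told whether it is more frequent among the meiotic genes. As interactions by edgeR, 0% of all genes passed on labelling and 0% over the chase. CRR1, a glycosidase gene, changed on labelling by -0.27, -0.54 and -0.12 (log2) in wild type and by 1.12, 0.48 and 0.19 in the deletion, a difference of 0.98. CDA1 changed from first to last chase library by -0.33, -1.16 and -0.60 in wild type and by 0.61, 1.04 and 0.24 in the deletion, a difference of 1.76, on 0.459 to 6.67 CPM. Tested as interactions by edgeR, neither passed, with adjusted p = 0.946 for CRR1 and 0.879 for CDA1. PCH2, the axis ATPase gene, had the same pattern on labelling, with 2.05, 0.12 and 0.51 in wild type and -0.53, -0.01 and -0.45 in the deletion, a difference of -1.22 on the log2(CPM + 0.5) scale; it had too few reads for the fit (0 to 1.57 CPM), and this difference was not tested.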

How the results depend on the processing

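The count of genes with more reads moved from 15 to 31 with the replicate block and to 32 with replicates 2 and 3 only, and lay between 6 and 16 when 1 culture was left out: 7 without wild-type replicate 2, 6 without wild-type replicate 3, and 9 and 8 without deletion replicates 2 and 3. Calls higher over all genes moved as well, from 310 to 1109 with the block and 1271 with replicates 2 and 3 only. They were 49 and 48 without wild-type replicates 2 and 3, and 127 and 95 without deletion replicates 2 and 3. With relative log expression scaling the count of the 46 was 12 (234 over all genes), and DIT1, SPO16 and REC104 no longer passed. The count lower was 0 in each, and the median was 0.97 to 1.11 over all these settings (0.98 to 1.10 with 1 culture left out). In unlabelled libraries the count of 11 became 18 with the block and 20 with replicates 2 and 3 only, where the median was 1.14, and ran from 1 to 13 with 1 culture left out: 3 and 1 without wild-type replicates 2 and 3, and 2 without either deletion replicate 2 or 3. Here the median ran from 0.78 to 1.42 (1.42 without wild-type replicate 1). Over all genes the calls higher in unlabelled libraries went from 178 to 729 with the block. They were 27 and 20 without wild-type replicates 2 and 3.

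For half-lives by the line, the median of 0.43 became 0.77 by the exponential (1 gene called), 0.78 without the last chase point and 0.23 with replicates 2 and 3 only, and 0.23 to 0.47 with 1 culture left out, with 0 calls. Same-numbered cultures did not deviate together for half-lives (correlations 0.0165 to 0.0325), so the numbers are not read as pairs there: by the exponential the call of ISC10 was lost with the replicate block (0 called, adjusted p = 0.125 by limma) and with replicates 2 and 3 only (0 called), and kept only without wild-type replicate 1 among the fits with 1 culture left out (0 to 1 called, median 0.71 to 0.90). The exponential without the last point gave a median of 1.13. These fits of the exponential other than the first were chosen after seeing the data. On labelling, 0 to 3 genes fell and 0 rose with 1 culture left out (median -0.06 to 0.03). Over the chase 0 to 1 rose and 0 to 4 fell (median -0.16 to 0.02), and DESeq2 gave 2 higher and 6 lower. The share of all genes that DESeq2 called over the chase is not given here, so its counts are not read as a result about these genes. By genotype 0 were called (median 0.12 to 0.28).

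Signs reversed for IME1 reads (0.02 and 0.22 without wild-type replicates 2 and 3, 0.23 without deletion replicate 1, from -0.32 to 0.23 in all), NDT80 reads (-0.10 without deletion replicate 1, up to 0.27), NDT80 half-life by the line (0.49 by the exponential, 0.41 without the last point, 0.05 without wild-type replicate 3, down to -0.57) and HFM1 half-life (0.68 by the exponential, 0.44 without the last point); none of these values passed a test. The cause of the moves was not tested.

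With 3 cultures against 3 and most of these genes under 10 CPM, a difference that missed the threshold is not shown to be absent. The criteria for a half-life by the exponential were not met by 10 genes. Without the third chase library of deletion replicate 1, in which ISC10 took 9.44% of the reads of the 46 genes against 18.2 to 25% at its other labelled points, 15 genes rose, the same 15.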

Other observations

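Genes around the 46 were looked at by list. Of 23 other meiosis and sporulation genes in the files 5 rose without UPF3 and 0 fell by edgeR, with a median log2 change of 0.78; of all genes 5.58% rose and 0.18% fell. ZIP2, which encodes the partner of Spo16 in the synapsis initiation complex, had 3.33, 2.31 and 2.68 CPM in wild type and 17, 10.9 and 12 in the deletion (4.81-fold, adjusted p = 0.0063 by edgeR). The sporulation genes SPR6 and SPR1 (a glucanase of the spore) rose 3-fold and 2.75-fold, with adjusted p = 0.00678 and 0.0212 by edgeR. With the replicate block 15 of the 23 rose, against 20% of all genes.

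The genes that hold meiosis off in growing cells had a median log2 change of -0.13, and 1 of 11 rose, against 5.58% of all genes. With the block 2 of 11 rose (SSN8 and HST1), against 20% of all genes, and 1 fell (ISW2), against 7.52%. The gene that rose without the block was SSN8, the cyclin C gene, a component of the Mediator kinase module that represses early meiotic genes, with 16.3, 22 and 22.3 CPM in wild type and 37.3, 57.1 and 55.8 in the deletion (2.48-fold, adjusted p = 0.03 by edgeR). Of 8 genes of the kinases and the pH pathway upstream of IME1, 1 rose, RIM9 (2.02-fold, adjusted p = 0.0314 by edgeR), against 5.58% of all genes. With the block 3 of the 8 did, RIM9, RIM8 and RIM13, against 20% of all genes. Among the a-cell markers BAR1, the protease that degrades alpha factor, fell from 119, 119 and 115 CPM to 65.9, 63.8 and 68.1 (adjusted p = 0.0239 by edgeR).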
